A study of Mus musculus with 54 samples.

Results

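The 10 genes described here make, sense or break down prostaglandins. They are *Ptgs1*, *Ptgs2*, *Ptges*, *Ptges2*, *Ptges3*, *Ptger2*, *Ptger3*, *Ptger4*, *Ptgfr* and *Hpgd*, and are 10 of the 25149 genes in the deposited count and TPM tables. They were picked by gene symbol, with earlier results of these data known. The tables hold 54 RNA-seq libraries, each made from 1 piece of the wall of a cultured mouse follicle. Secondary follicles from CD-1 females of 14 to 16 days of age were grown one by one in alginate hydrogel for 8 days, and then spent 12 h in maturation medium that held FBS, EGF and recombinant FSH in all 4 groups. Human chorionic gonadotropin (hCG), which acts on the receptor of luteinizing hormone, was added for the post-hCG groups alone. Without hCG there were 15 libraries of the putative unruptured side and 14 of the putative ruptured side, which were told apart by the shape of follicles that had not ovulated. Post-hCG there were 12 libraries of the unruptured side and 13 of the ruptured side. Follicles in this culture have no blood supply or neighbouring follicles, and the no hCG groups were exposed to EGF and FSH, so they are not unstimulated tissue. The labels do not give how many mice the libraries came from or which pieces came from 1 follicle, so p-values measure the spread between these libraries.

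Prostaglandins are short-lived lipid signals built from arachidonic acid, which lipases free from membrane lipids. The cyclooxygenases encoded by *Ptgs1* and *Ptgs2* convert it into a common precursor, terminal synthases such as the product of *Ptges* turn the precursor into prostaglandin E, and receptors of the PTGER and PTGFR families pass the signal into the cell until HPGD oxidises the prostaglandin. In the ovary the surge of luteinizing hormone is known to induce *Ptgs2* in granulosa and cumulus cells, and mice without *Ptgs2* or *Ptger2* ovulate or fertilise poorly.

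Library totals ran from 1497071 to 2834734 estimated counts (median 2157092), and a count of 0 in a library allowed up to 3 counts, which was 1.06 to 2 CPM (counts scaled by library total). As tissue the labels give the cumulus-oocyte complex, but by the study's methods that complex was taken out of each piece. The summed level of 9 oocyte markers had a median of 0.20 TPM or less in every group, and reached 158 TPM in 1 library of the putative unruptured side. Oocyte markers do not report on cumulus cells, and genes of the cumulus matrix were present in every group, with values given beside *Ptgs2*. Of 11 genes known to respond to hCG or luteinizing hormone, 9 of 9 tested (unruptured side) and 7 of 8 tested (ruptured side) were called higher post-hCG. Of all genes tested, 53.1% and 60.1% were called there in either direction, and the list was chosen with earlier results known. The labels give each library a code of a letter and a number, and each group filled its own run of these codes. The labels do not say what the codes stand for. If they are plate wells, plate position and group cannot be told apart. Each library holds many cells, and fewer cells of a type and less RNA per cell cannot be told apart.

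On the TPM scale, which is corrected for transcript length, *Ptges3*, which encodes the HSP90 co-chaperone p23 with a prostaglandin E synthase activity, had the highest level of the 10 genes in every group, with medians between 76.3 and 110 TPM. Its range did not overlap that of the next gene in 3 of the 4 groups. On the unruptured side post-hCG it overlapped that of *Ptgs1*, although *Ptges3* was higher in each of the 12 libraries. *Ptges* came next without hCG, with medians of 7.83 TPM on the putative unruptured side and 17.9 TPM on the putative ruptured side. Post-hCG the next gene was *Ptgs1*, with medians of 34.1 TPM (unruptured) and 31.9 TPM (ruptured). The receptor genes and *Hpgd* were low, and apart from *Ptger3* on the putative unruptured side (median 2.31 TPM), *Hpgd* on the putative ruptured side (median 1.32 TPM) and *Ptgfr* post-hCG (medians of 2.23 and 2.57 TPM) their medians lay below 1 TPM. Most neighbours in this order had overlapping ranges. The exceptions were *Ptges3* above the next gene in those 3 groups and, on the ruptured side post-hCG, *Ptgs1* above *Ptgs2* and *Ptgfr* above *Ptger4*.

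**Figure D1:**
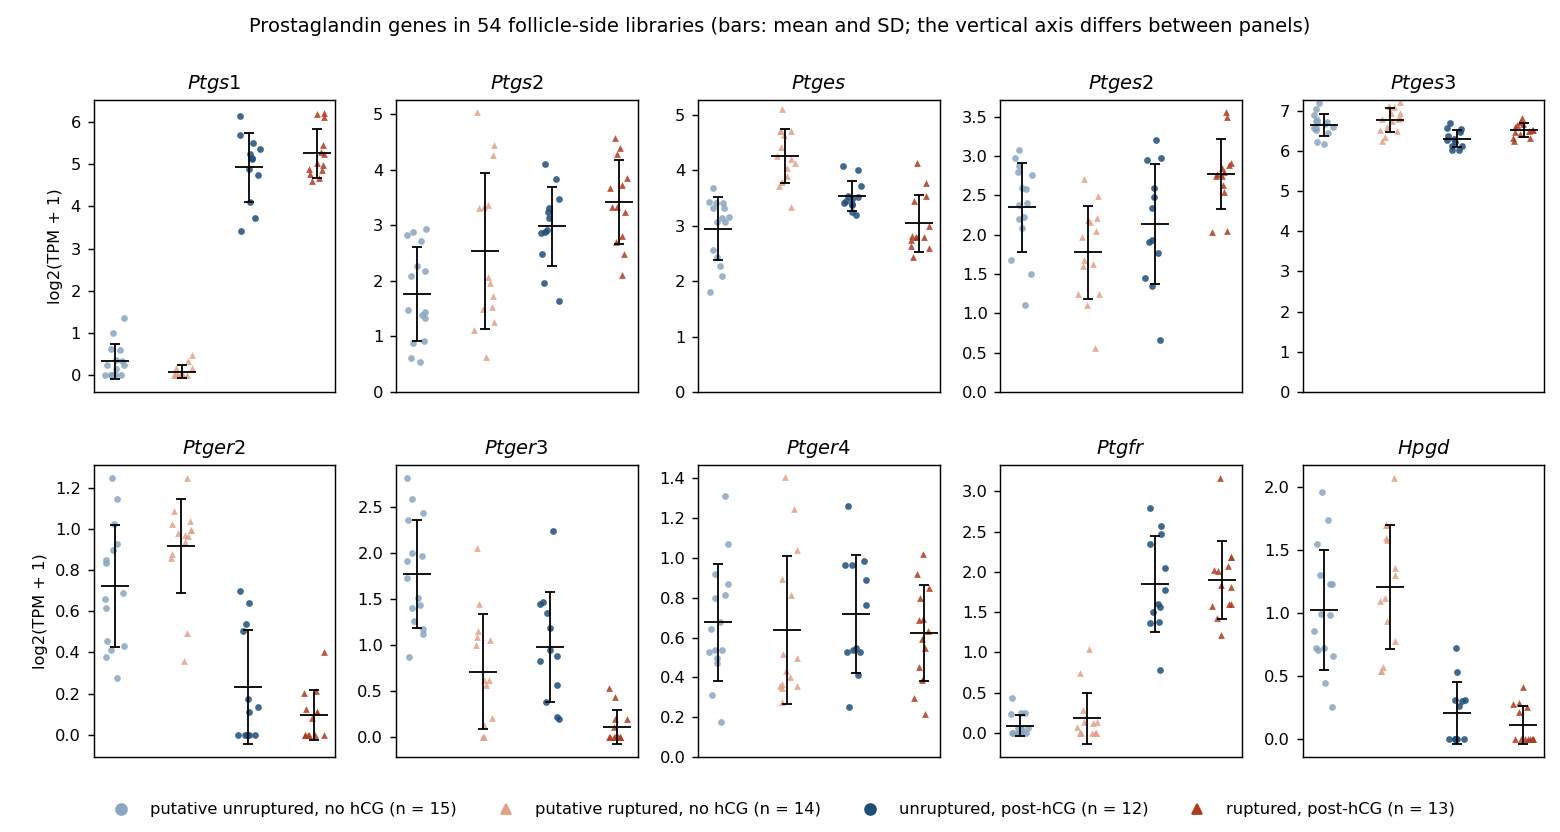
Level of each of the 10 prostaglandin genes, as log2(TPM + 1), in every library of the 4 groups, with horizontal bars for the group mean and vertical bars for the SD. *Ptgs1* and *Ptgfr* sit near 0 in the no hCG groups and above every no hCG library of their own side post-hCG, and *Ptges* is highest on the putative ruptured side, with a median of 17.9 TPM.

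Each pair of groups was tested over all genes that passed an expression filter (edgeR's quasi-likelihood test, in which p-values are adjusted by the method of Benjamini and Hochberg and called at 0.05). A log2 fold change (log2FC) is positive where a gene was higher on the ruptured side or post-hCG. Between the sides without hCG, 5 of the 10 genes passed the filter and 4 were called, 2 higher and 2 lower on the putative ruptured side, beside 17.8% of the 9063 genes tested. Between the sides post-hCG, 6 passed and 4 were called, all 4 higher on the ruptured side, beside 21.4% of 8585 genes. For hCG on the unruptured side, 7 passed and 6 were called, 4 higher and 2 lower, beside 53.1% of 9320 genes. For hCG on the ruptured side, 6 passed and 4 were called, 3 higher and 1 lower, beside 60.1% of 8531 genes. In the interaction, which is the response to hCG on the ruptured side minus that on the unruptured side, 8 passed and 2 were called, beside 8.91% of 10013 genes. A gene can pass the filter through the group in which it is high, so these counts say nothing about the genes that were left out. Those genes are given below from the same test without the filter, which called 8.49%, 10.8%, 29.5%, 33.7% and 3.21% of genes in the 5 comparisons in the order above. With libraries scaled by their totals alone, the share of called genes that were higher moved from 49.6% to 39.3% between the sides without hCG, from 47.0% to 17.8% between the sides post-hCG, from 47.8% to 27.5% and from 49.4% to 24.5% for hCG on the unruptured and ruptured sides, and from 47.8% to 25.9% in the interaction. With limma on log2(TPM + 1), another test, that share was 43.2% between the sides without hCG and 8.99% between the sides post-hCG. For hCG it was 57.6% and 34.3% on the unruptured and ruptured sides, and in the interaction 11%. The comparisons share libraries, so their values are set side by side only.

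*Ptgs1* (GRCm38 chromosome 2, 36230426 to 36252272, plus strand), the cyclooxygenase that many tissues express without induction, was at the limit of detection without hCG and abundant post-hCG. The annotation places another gene on the same or the other strand within the bounds of *Ptgs1*, *Ptges*, *Ptger2*, *Ptger4*, *Ptgfr* and *Hpgd*, and the sources used here do not state whether counting used strand, so part of their reads could belong to those genes. *Ptgs1* ranged from 0 to 1.57 TPM (median 0.18) on the putative unruptured side, with 22 counts over 15 libraries. On the putative ruptured side it ranged from 0 to 0.38 TPM (median 0), with 7 counts over 14 libraries and no count in 10 of them. Both no hCG groups were at or below 5 counts in every library. Post-hCG the unruptured libraries spanned 9.75 to 69.3 TPM (median 34.1) and the ruptured libraries 23.4 to 73.3 TPM (median 31.9). Every post-hCG library lay above every no hCG library of the same side. *Ptgfr* was the other of the 10 genes without overlap on the unruptured side, where 2.53% of genes had ranges of TPM that did not overlap. Between the sides the ranges of all 10 genes overlapped in both media, beside 0.0142% of genes without overlap in the no hCG media and 0.552% post-hCG. The log2FC of *Ptgs1* for hCG was 7.66 ± 0.38 (SE, a 203-fold change, adjusted p = 3.61e-17 by edgeR) on the unruptured side. It was 9.24 ± 0.40 (604-fold, adjusted p = 2.64e-19 by edgeR) on the ruptured side. Because the no hCG groups held so few counts, the sizes of these folds are less certain than their direction, and the difference between the sides in the response was 1.61 ± 0.93 with a 95% interval from −0.22 to 3.44 (adjusted p = 0.307 by edgeR). Between the sides post-hCG the log2FC of *Ptgs1* was 0.62 ± 0.27 with an adjusted p of 0.102 by edgeR. Without replicate 11 of the unruptured side, the library with the highest level there, this was 0.80 with an adjusted p of 0.0268.

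*Ptgs2* (chromosome 1, 150100031 to 150108227, plus strand), the inducible cyclooxygenase, was present in every library and varied most among the libraries of the putative ruptured side. Without hCG libraries of the putative unruptured side lay at 0.46 to 6.68 TPM (median 1.80), and those of the putative ruptured side at 0.54 to 31.9 TPM (median 3.05). Replicates 1, 2 and 4 of the putative ruptured side stood at 20.9, 31.9 and 18.2 TPM, and the other 11 libraries of that group lay at 9.34 TPM or less. The ranges of the 2 sides overlapped, and 11 of the 14 libraries of the putative ruptured side were above the median of the putative unruptured side. The log2FC between the sides was 1.71 ± 0.45 (adjusted p = 0.00696 by edgeR). It stayed called without each library in turn, between 1.31 and 1.91, but limma on log2(TPM + 1) gave 0.77 with an adjusted p of 0.238.

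Genes of cumulus expansion moved with *Ptgs2* between the sides without hCG, where 17.8% of all genes tested were called. Of a list of 5, which holds *Ptgs2* itself, the 3 that passed the filter were called higher on the putative ruptured side, and the other 2 were *Has2*, which makes hyaluronan (log2FC 1.92 ± 0.32, adjusted p = 6.79e-05 by edgeR), and *Tnfaip6*, which links it (1.40 ± 0.48, adjusted p = 0.041 by edgeR). Without *Ptgs2* the list summed to 1.73 to 25.7 TPM (median 4.87) among putative unruptured libraries and 3.28 to 96.2 TPM (median 8.06) among putative ruptured libraries. The sum was highest in replicates 4, 2 and 1 of the putative ruptured side, at 96.2, 49.0 and 16.8 TPM, which are the libraries in which *Ptgs2* was highest. Post-hCG it was 9.06 to 34.8 TPM (median 21.7) among unruptured libraries and up to 28.7 TPM (median 19.1) among ruptured libraries. The median of *Has2* alone lay below 1 TPM in both post-hCG groups and on the putative unruptured side. Its interaction was −3.59 ± 0.72 (adjusted p = 0.000662 by edgeR). In the other groups the sum and *Ptgs2* did not always go together. On the putative unruptured side replicate 5 was highest in both, but replicates 7 and 8, next in *Ptgs2* at 6.38 and 6.10 TPM, ranked 11 and 12 in the sum. Post-hCG the library highest in *Ptgs2* ranked 8 (unruptured side, replicate 1) and 3 (ruptured side, replicate 11) in the sum. The part of cumulus cells in the values of *Ptgs2* was not tested.

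Post-hCG the level of *Ptgs2* was 2.12 to 16.3 TPM (median 7.15) among unruptured libraries and 3.30 to 22.9 TPM (median 9.08) among ruptured libraries. The ranges overlapped again, with 3 of 13 libraries of the ruptured side above every library of the unruptured side. The log2FC between the sides was 0.83 ± 0.29 (adjusted p = 0.0366 by edgeR). This call was lost without any 1 of 9 libraries, replicates 3, 4, 5, 11 and 12 of the unruptured side and replicates 1, 8, 11 and 12 of the ruptured side (log2FC 0.72 to 0.82, adjusted p 0.0501 to 0.0743 by edgeR). In response to hCG *Ptgs2* rose on the unruptured side by a log2FC of 1.72 ± 0.32 (adjusted p = 3.57e-05 by edgeR), and all 12 libraries were above the no hCG median. On the ruptured side all 13 were above the no hCG median and the log2FC was 0.84 ± 0.42, with a 95% interval from 0.03 to 1.66 and an adjusted p of 0.0797 by edgeR. This passed the threshold when replicate 2 (1.23, adjusted p = 0.00619) or replicate 4 (0.96, adjusted p = 0.049) of the putative ruptured side was left out. The interaction was −0.87 ± 0.56 with an interval from −1.97 to 0.22 (adjusted p = 0.369 by edgeR).

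The promoters of the 2 cyclooxygenase genes are shown because the balance of the 2 turned with hCG, each as 250 bases before and 50 bases after the RefSeq start on GRCm38.p6, read 5′ to 3′ along the gene. Capitals mark matches on either strand to 7 short motifs: TGACG (part of the cAMP response element), CACGTG (E-box), GGGCGG (GC box), GCAAT (part of the C/EBP site), AAGGTCA (NR5A), TGANTCA (AP-1) and TGTGGT (RUNX). The windows are chr2:36230176-36230475 on the plus strand for *Ptgs1* and chr1:150099781-150100080 on the plus strand for *Ptgs2*.
Ptgs1: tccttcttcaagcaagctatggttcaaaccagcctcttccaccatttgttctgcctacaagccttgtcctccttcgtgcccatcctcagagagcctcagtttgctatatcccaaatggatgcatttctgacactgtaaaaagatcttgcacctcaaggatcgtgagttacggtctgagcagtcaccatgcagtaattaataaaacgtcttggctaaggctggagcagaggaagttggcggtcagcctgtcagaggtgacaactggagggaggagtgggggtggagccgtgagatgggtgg
Ptgs2: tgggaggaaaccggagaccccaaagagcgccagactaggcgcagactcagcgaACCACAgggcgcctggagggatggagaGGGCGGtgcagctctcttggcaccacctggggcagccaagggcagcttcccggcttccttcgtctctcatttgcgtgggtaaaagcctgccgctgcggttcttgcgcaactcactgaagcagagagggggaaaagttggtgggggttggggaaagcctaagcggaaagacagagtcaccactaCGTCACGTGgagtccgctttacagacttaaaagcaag

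None of the 7 motifs is in the *Ptgs1* window. The *Ptgs2* window holds a TGACG on the opposite strand at 14 to 18 bases after the start, which overlaps a CACGTG at 17 to 22 bases after it, and a GGGCGG and a TGTGGT further upstream. Of 32851 RefSeq promoters of the same length, 20.8% hold TGACG, 7.15% CACGTG, 35.7% GGGCGG, 26.4% GCAAT, 4.72% AAGGTCA, 7.81% TGANTCA and 16.8% TGTGGT. A match is a description of the letters and says nothing about the factor.

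Within each library the balance of the 2 genes turned with hCG. *Ptgs1* was 0 to 46.6% of the summed TPM of both genes on the putative unruptured side (median 3.77%) and 0 to 32.5% on the putative ruptured side (median 0%). Post-hCG it was 61.5 to 94.2% on the unruptured side (median 79.1%) and 56.7 to 95.4% on the ruptured side (median 79.5%). In TPM *Ptgs2* was the higher of the 2 genes in all 29 no hCG libraries, and *Ptgs1* was the higher in all 25 post-hCG libraries. The log2 ratio of *Ptgs1* to *Ptgs2*, with 1 TPM added to each, was −1.45 ± 0.91 (SD, n = 15) and −2.46 ± 1.47 (n = 14) without hCG on the putative unruptured and putative ruptured sides. It was 1.94 ± 0.87 (n = 12) and 1.83 ± 1.11 (n = 13) post-hCG, where the 2 groups differed by less than either SD. Without correction for length, in CPM, *Ptgs2* was the higher in 1 of 12 and 2 of 13 post-hCG libraries. As these genes were chosen with this contrast known, the ratio is a description and was given no test.

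**Figure D2:**
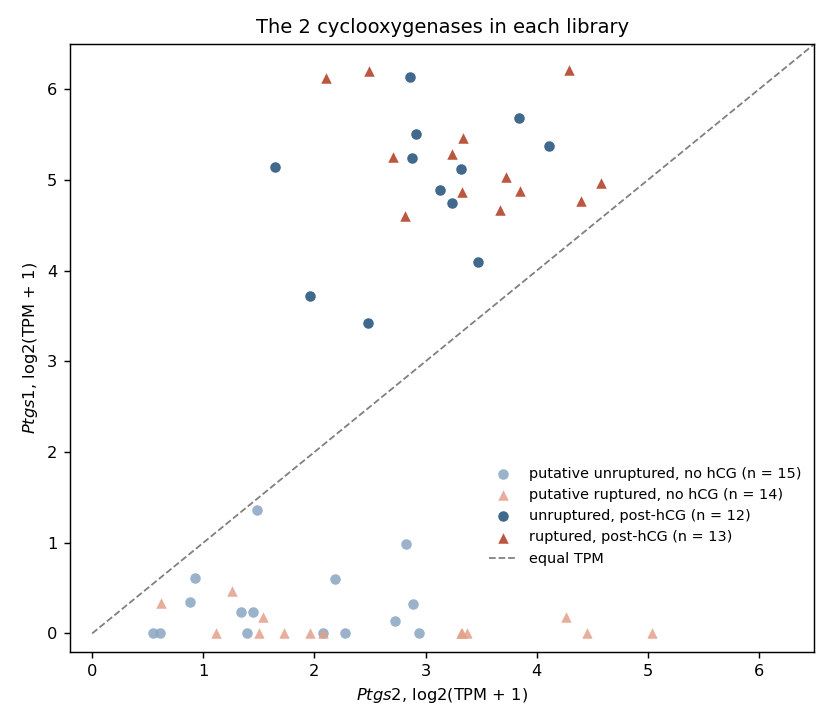
Level of *Ptgs1* (vertical axis) against *Ptgs2* (horizontal axis) in each library, both as log2(TPM + 1), with a dashed line where the 2 are equal. All 25 post-hCG libraries lie above the line and all 29 no hCG libraries lie below it.

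*Ptges* (chromosome 2, 30889471 to 30929863, minus strand), the inducible terminal synthase of prostaglandin E, responded to hCG in opposite directions on the 2 sides. The gene within its bounds is a processed pseudogene on the same strand. Without hCG its level was 2.50 to 11.8 TPM (median 7.83) among putative unruptured libraries and 9.08 to 33.5 TPM (median 17.9) among putative ruptured libraries. The ranges overlapped through 1 library, and 13 of the 14 libraries of the putative ruptured side lay above all 15 of the putative unruptured side. Post-hCG the unruptured libraries spanned 8.21 to 15.8 TPM (median 10.045) and the ruptured libraries 4.42 to 16.5 TPM (median 5.98). There 9 of 13 libraries of the ruptured side lay below every library of the unruptured side and 1 lay above them all.

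The log2FC of *Ptges* between the sides was 1.36 ± 0.14 without hCG (2.57-fold, adjusted p = 3.65e-07 by edgeR). Post-hCG it was −0.28 ± 0.10 with an interval from −0.48 to −0.07 (adjusted p = 0.0556 by edgeR), and it passed the threshold without replicate 10 or 12 of the unruptured side or replicate 3 or 9 of the ruptured side (−0.32 to −0.30, adjusted p 0.0257 to 0.0455). In response to hCG it rose on the unruptured side by 0.50 ± 0.12 (1.41-fold, adjusted p = 0.000617 by edgeR), where all 12 libraries were above the no hCG median. It fell on the ruptured side, with a log2FC of −1.13 ± 0.14 (2.19-fold lower, adjusted p = 2.38e-08 by edgeR), where all 13 libraries were below the no hCG median. The interaction was −1.63 ± 0.19 with an interval from −1.999 to −1.27 (adjusted p = 3.52e-08 by edgeR), and between −1.68 and −1.58 without each of the 54 libraries in turn. *Ptges* was chosen with this contrast known, so its adjusted p-value and refits describe these libraries and are no independent support. Scaling by library totals alone moved the median log2FC of all genes for hCG to −0.25 (unruptured side) and −0.33 (ruptured side), from −0.03 and −0.001. With that scaling the value of *Ptges* on the unruptured side was 0.28 with an adjusted p of 0.0548 by edgeR, which missed the threshold.

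Cell type markers moved between the same groups. Of 11 granulosa markers, 10 of which passed the filter, 9 were called higher on the putative ruptured side, where their summed TPM ran from 6006 to 23118 (median 14439) and *Amh* had no count, beside 1594 to 7735 (median 4110) on the putative unruptured side. Of 11 theca and stroma markers, 8 of which passed, 7 were called lower there. Of all genes tested between the sides without hCG, 17.8% were called in either direction. With hCG 8 granulosa markers were called lower and 2 higher on the unruptured side, where they summed to 1007 to 2215 TPM (median 1580). On the ruptured side 8 were called lower and 1 higher, and they summed to 885 to 1680 TPM (median 1367) with no count of *Amh*. Of all genes tested, 53.1% and 60.1% were called with hCG on the unruptured and ruptured sides in either direction. In the interaction, where *Ptges* had −1.63, 8.91% of all genes tested were called in either direction. Of the 10 granulosa markers tested, 4 were called lower and none higher by edgeR. They were *Inhba* (−3.54 ± 0.68, adjusted p = 0.000383), *Inha* (−1.78 ± 0.33, adjusted p = 0.000237), *Fshr* (−1.49 ± 0.45, adjusted p = 0.0258) and *Gja1* (−1.25 ± 0.28, adjusted p = 0.00217), which encode subunits of inhibin and activin, the FSH receptor and a gap junction protein. Among the markers not called, *Foxl2* (0.98 ± 0.42, adjusted p = 0.133 by edgeR) and *Fst* (0.89 ± 0.46, adjusted p = 0.24) had positive values. Those of *Cyp19a1* (−2.86), *Hsd17b1* (−2.97), *Esr2* (−0.94) and *Nr5a2* (−0.56) were negative. The part of cell makeup in the values of *Ptges* and of the other members was not tested.

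The *Ptges* promoter is shown as that of the gene whose response was in opposite directions on the 2 sides. The window is chr2:30903248-30903547 on the minus strand, so the RefSeq start lies inside the longer gene of the annotation used for positions. Capitals mark 2 GC boxes on the strand of the gene, 53 to 48 and 42 to 37 bases before the start, and none of the other 6 motifs is in the window.
Ptges: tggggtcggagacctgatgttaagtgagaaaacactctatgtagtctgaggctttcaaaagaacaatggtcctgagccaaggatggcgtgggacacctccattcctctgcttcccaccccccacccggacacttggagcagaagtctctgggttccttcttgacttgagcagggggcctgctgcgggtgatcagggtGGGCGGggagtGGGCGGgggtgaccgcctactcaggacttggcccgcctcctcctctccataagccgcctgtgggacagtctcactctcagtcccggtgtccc

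*Ptges2* (chromosome 2, 32395896 to 32405772, plus strand), a membrane-bound synthase named for the same reaction, had an interaction of the opposite sign. Libraries of the putative unruptured side lay at 1.16 to 7.41 TPM (median 4.30), and those of the putative ruptured side at 0.47 to 5.54 TPM (median 2.57). Post-hCG its level was 0.58 to 8.20 TPM (median 3.44) among unruptured libraries and 3.10 to 10.8 TPM (median 5.82) among ruptured libraries. The ranges overlapped in every pair, and all 13 ruptured libraries post-hCG lay above the no hCG median of their side. *Ptges2* was lower on the putative ruptured side (log2FC −0.66 ± 0.16, adjusted p = 0.00331 by edgeR), a call that limma on log2(TPM + 1) did not make (−0.57, adjusted p = 0.0729).

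For hCG the log2FC of *Ptges2* was −0.10 ± 0.17 on the unruptured side, with an interval from −0.43 to 0.23 (adjusted p = 0.633 by edgeR). It rose on the ruptured side by 1.08 ± 0.17 (2.12-fold, adjusted p = 2.2e-06 by edgeR). The interaction was 1.18 ± 0.24 (adjusted p = 0.000824 by edgeR), and 1.12 to 1.29 without each library in turn. Between the sides post-hCG the log2FC was 0.52 ± 0.18 (adjusted p = 0.0391 by edgeR). That call was lost without any 1 of 12 libraries, replicates 1, 2, 3, 4, 5, 6 and 9 of the unruptured side and replicates 3, 5, 9, 11 and 13 of the ruptured side (0.46 to 0.51, adjusted p 0.0511 to 0.0725). The estimated counts of *Ptges2* were low, at 5 to 35 in a library, and 27.8% of them were whole numbers, against 72.2% of all non-zero values, so its reads were partly shared with other features.

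*Ptges3* (chromosome 10, 128058954 to 128077272, plus strand) was high in every library. A pseudogene, *Ptges3-ps*, is annotated elsewhere, and 1.85% of the non-zero estimated counts of *Ptges3* were whole numbers, so reads were shared with other features and its level is uncertain. Over the 4 groups single libraries ran from 63.6 to 147 TPM, with medians of 101 and 110 TPM without hCG and 76.3 and 90.1 TPM post-hCG on the unruptured and ruptured sides. All 4 ranges overlapped. It was higher on the ruptured side post-hCG (log2FC 0.42 ± 0.08, adjusted p = 0.00025 by edgeR), in 12 of 13 libraries against the median of the unruptured side, though limma on log2(TPM + 1) did not call it (0.21, adjusted p = 0.0794). It was lower with hCG on the unruptured side (−0.36 ± 0.10, adjusted p = 0.00394 by edgeR). On the ruptured side the log2FC was −0.06 ± 0.08 (adjusted p = 0.514 by edgeR), which became −0.39 with an adjusted p of 5.89e-05 when libraries were scaled by their totals alone and the median gene stood at −0.33. Between the sides without hCG the log2FC was 0.13 ± 0.09 (adjusted p = 0.365 by edgeR), and the interaction was 0.30 ± 0.12 (adjusted p = 0.127 by edgeR).

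**Figure D3:**
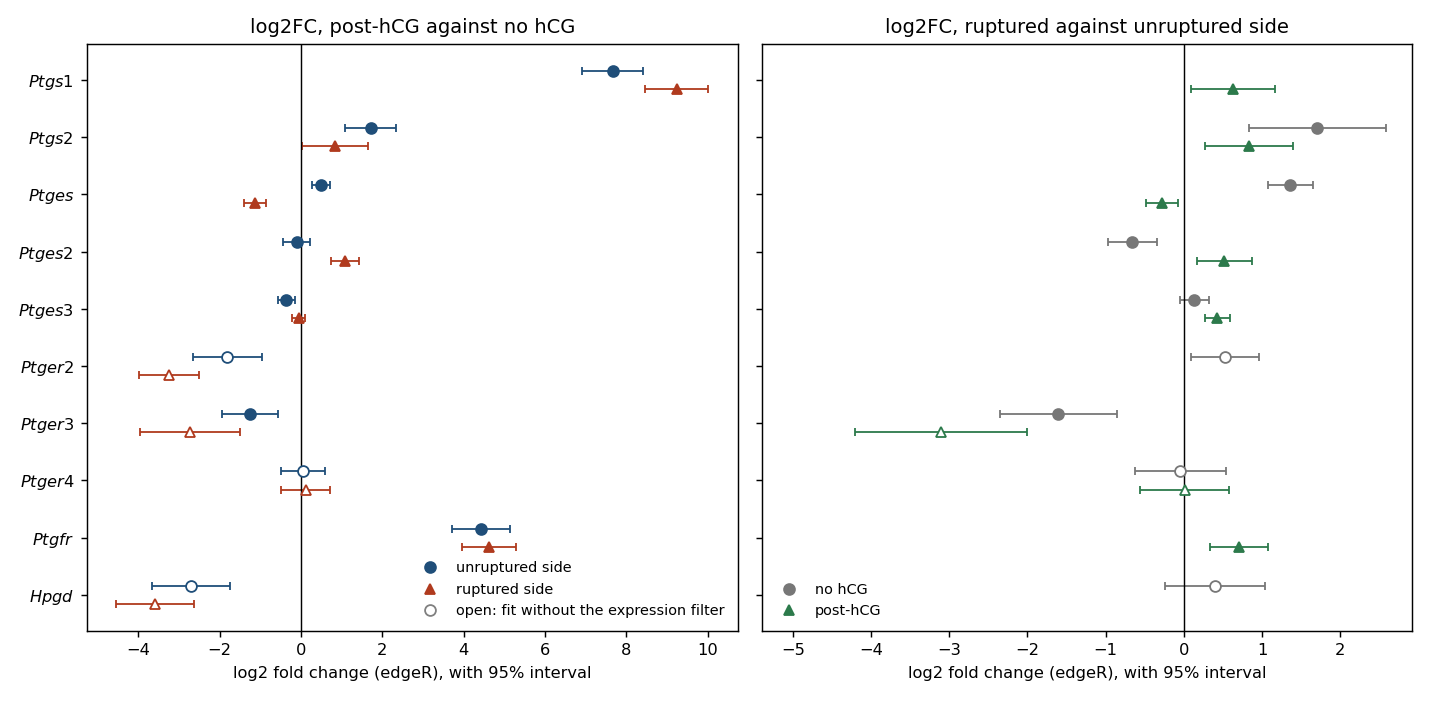
log2FC (horizontal axis) of the 10 genes with 95% intervals, for post-hCG against no hCG on each side (left) and for the ruptured against the unruptured side in each medium (right), with open symbols from the fit without the expression filter and no symbol where the median library of both groups held 3 counts or fewer. *Ptges* lies on opposite sides of 0 in the left panel, at 0.50 and −1.13, and *Ptgs1* lies farthest from 0, at 7.66 and 9.24.

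Among the receptors of prostaglandin E, *Ptger2* (chromosome 14, 44988195 to 45003820, plus strand), which raises cAMP, was lower post-hCG on both sides. Without hCG the putative unruptured libraries spanned 0.21 to 1.37 TPM (median 0.61) and the putative ruptured libraries 0.28 to 1.37 TPM (median 0.97). Post-hCG libraries of the unruptured side lay at 0 to 0.62 TPM (median 0.09), and those of the ruptured side at 0 to 0.32 TPM (median 0.06). Every no hCG library held counts, while 5 of 12 and 6 of 13 post-hCG libraries held none. In the test without the filter the log2FC for hCG was −1.81 ± 0.43 on the unruptured side (adjusted p = 0.000984 by edgeR). It was −3.24 ± 0.38 on the ruptured side (adjusted p = 3.16e-09 by edgeR), where 12 of 13 libraries lay below the lowest no hCG library. The interaction was −1.48 ± 0.62 with an interval from −2.69 to −0.27 (adjusted p = 0.125 by edgeR). Between the sides the log2FC without hCG was 0.53 ± 0.22 (adjusted p = 0.146 by edgeR), and post-hCG, where the median library held 1 count on each side, no difference was detectable at this depth.

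*Ptger3* (chromosome 3, 157566892 to 157645888, plus strand), a receptor that lowers cAMP, was lower on the ruptured side in both media. Its level was 0.83 to 6.0 TPM (median 2.31) among putative unruptured libraries and 0 to 3.16 TPM (median 0.54) among putative ruptured libraries, where 3 of 14 libraries held no count. Post-hCG the unruptured libraries spanned 0.15 to 3.71 TPM (median 0.89) and the ruptured libraries 0 to 0.45 TPM (median 0), where 8 of 13 held none. The ranges overlapped, and no library of the ruptured side post-hCG exceeded the median of the unruptured side. The log2FC between the sides was −1.61 ± 0.38 without hCG (3.05-fold lower, adjusted p = 0.00299 by edgeR). Post-hCG it was −3.10 ± 0.56 without the filter (adjusted p = 9.48e-05 by edgeR), resting on 11 counts on the ruptured side and 100 counts on the unruptured side. For hCG it was −1.26 ± 0.35 on the unruptured side (adjusted p = 0.00336 by edgeR). On the ruptured side it was −2.74 ± 0.63 without the filter (adjusted p = 0.000518 by edgeR). The interaction was −1.50 ± 0.77, with an interval from −3.01 to 0.01 and an adjusted p of 0.231 by edgeR, and limma on log2(TPM + 1) gave it the other sign, 0.19 with an adjusted p of 0.726.

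By group medians, summed theca and stroma markers followed the same order of groups as *Ptger3*. The summed TPM of the 11 markers was 29.7 to 2808 in putative unruptured libraries (median 533) and 4.12 to 574 in putative ruptured libraries (median 35.8). Post-hCG it was 76.7 to 1413 in unruptured libraries (median 355) and 1.10 to 56.1 in ruptured libraries (median 4.88), where *Cyp17a1* had no count and 10 of the 11 markers had a median below 1 TPM. Within groups the match was loose, as in no group was the library highest in this sum also highest in *Ptger3*. On the putative ruptured side replicate 4 was highest in *Ptger3* (3.16 TPM) with a sum of 37.1 TPM. Between the sides 7 of the 8 markers that passed the filter were called lower on the putative ruptured side, and 6 of 6 on the ruptured side post-hCG. Of all genes tested, 17.8% and 21.4% were called there in either direction. Summed immune markers ran the same way as the theca and stroma sum, with medians of 35.5, 3.16, 14.1 and 0.57 TPM in the same order of groups. Of the 9 immune markers, 8 on the unruptured side and all 9 on the ruptured side had a median below 1 TPM in each medium. Only *Lyz2* passed the filter between the sides without hCG (log2FC −2.87 ± 0.70, adjusted p = 0.00397 by edgeR), and none did between the sides post-hCG. A list of 7 smooth muscle markers summed to 5.61 to 66.4 TPM (median 34.7) in putative unruptured libraries and 2.25 to 46.2 TPM (median 5.43) in putative ruptured libraries, where *Cnn1* had no count. Post-hCG the list summed to 2.95 to 24.4 TPM (median 4.54) in unruptured libraries and 0.31 to 4.74 TPM (median 2.45) in ruptured libraries, where *Myh11* had no count. Replicate 5 of the unruptured side post-hCG was highest of its group in this sum and in *Ptger3*. In each other group the library with the highest sum was not the one with the highest *Ptger3*. Of the 7 only *Acta2*, smooth muscle actin, passed the filter. It was lower on the putative ruptured side (log2FC −1.53 ± 0.48, adjusted p = 0.023 by edgeR) and lower with hCG on the unruptured side (−2.81 ± 0.39, adjusted p = 3.22e-07 by edgeR). The part of theca, immune and muscle cells in the level of *Ptger3* was not tested.

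**Figure D4:**
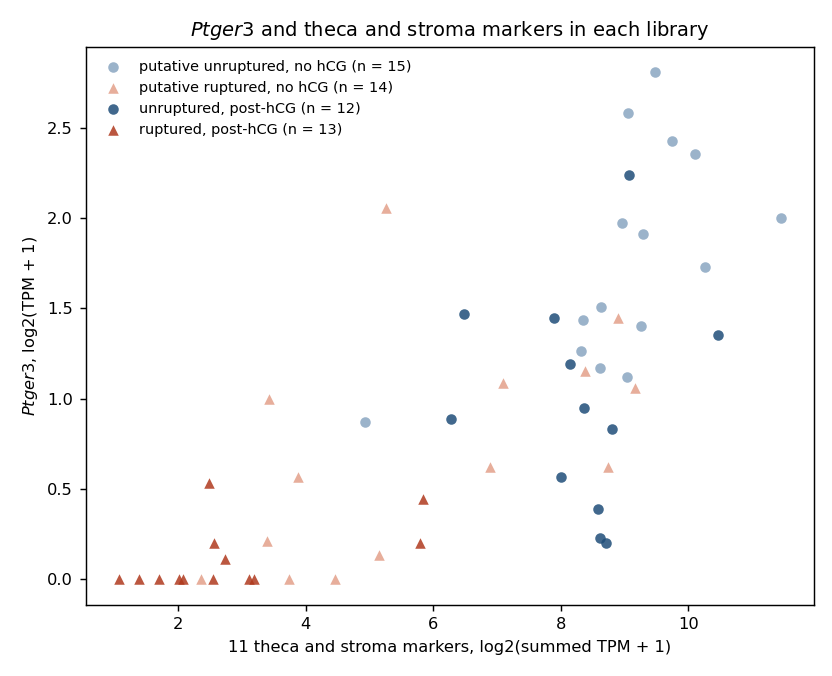
Level of *Ptger3* as log2(TPM + 1) (vertical axis) against the summed TPM of 11 theca and stroma markers as log2(summed TPM + 1) (horizontal axis) in each library, with 1 colour and shape per group. Libraries of the ruptured side post-hCG lie at the lower left, with *Ptger3* at 0.45 TPM or less and the marker sum at 56.1 TPM or less.

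*Ptger4* (chromosome 15, 5206661 to 5244187, minus strand), which like *Ptger2* raises cAMP, was detected in every library at a low level that did not differ detectably between groups. Single libraries ran from 0.13 to 1.65 TPM, and group medians were 0.56, 0.38, 0.58 and 0.55 TPM on the putative unruptured, putative ruptured, unruptured and ruptured sides. In the fit without the filter the log2FC for hCG was 0.06 ± 0.28 on the unruptured side (interval −0.48 to 0.60, adjusted p = 0.884 by edgeR) and 0.12 ± 0.31 on the ruptured side (−0.48 to 0.71, adjusted p = 0.794). Between the sides it was −0.05 ± 0.30 without hCG (−0.62 to 0.53, adjusted p = 0.939 by edgeR) and 0.01 ± 0.29 post-hCG (−0.56 to 0.58, adjusted p = 0.998).

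*Ptgfr* (chromosome 3, 151796502 to 151837630, minus strand), the receptor of prostaglandin F, which in the corpus luteum mediates regression, rose with hCG on both sides from a level near 0. Without hCG libraries of the putative unruptured side lay at 0 to 0.35 TPM (median 0.03), and those of the putative ruptured side at 0 to 1.05 TPM (median 0.025), with 19 counts in each group and no count in 7 libraries of each. Post-hCG its level was 0.72 to 5.90 TPM (median 2.23) among unruptured libraries and 1.32 to 7.95 TPM (median 2.57) among ruptured libraries. No post-hCG library overlapped a no hCG library of its own side. The log2FC for hCG was 4.42 ± 0.36 (adjusted p = 5.41e-12 by edgeR) on the unruptured side and 4.63 ± 0.34 (adjusted p = 1.22e-13) on the ruptured side. The interaction was 0.23 ± 0.85 with an interval from −1.44 to 1.89 (adjusted p = 0.917 by edgeR), and its sign was turned by limma on log2(TPM + 1), −0.04. Between the sides post-hCG *Ptgfr* was 0.71 ± 0.19 higher on the ruptured side (adjusted p = 0.00732 by edgeR), while limma on log2(TPM + 1) gave 0.05 with an adjusted p of 0.885. Without hCG both sides were below the limit of detection in the median library, so no fold is given.

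The promoter of *Ptgfr* is shown because *Ptgfr*, like *Ptgs1*, was above every no hCG library of its side in every post-hCG library. The window is chr3:151837479-151837778 on the minus strand, with capitals for 2 GC boxes, 30 to 25 bases before the start and from 4 bases before to 2 bases after it. None of the other 6 motifs is in the window.
Ptgfr: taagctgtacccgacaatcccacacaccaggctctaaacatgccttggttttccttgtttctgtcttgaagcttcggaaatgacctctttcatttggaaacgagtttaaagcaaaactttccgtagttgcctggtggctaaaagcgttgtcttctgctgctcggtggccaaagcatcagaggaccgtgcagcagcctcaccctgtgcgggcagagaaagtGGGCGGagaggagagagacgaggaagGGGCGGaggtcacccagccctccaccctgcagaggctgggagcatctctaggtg

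*Hpgd* (chromosome 8, 56294585 to 56321043, plus strand), whose product starts the breakdown of prostaglandins, was low without hCG and at the limit of detection post-hCG. The putative unruptured libraries spanned 0.19 to 2.89 TPM (median 0.98) and the putative ruptured libraries 0.45 to 3.20 TPM (median 1.32), with counts in every library. Post-hCG libraries of the unruptured side lay at 0 to 0.65 TPM (median 0.10), and those of the ruptured side at 0 to 0.33 TPM (median 0), with 9 and 6 counts in all and none in 6 of 12 and 8 of 13 libraries. All 13 post-hCG libraries of the ruptured side lay below all 14 no hCG libraries, which with *Ptgs1* and *Ptgfr* made 3 of the 10 genes without overlap on that side, beside 3.67% of genes. In the test without the filter the log2FC for hCG was −2.71 ± 0.49 on the unruptured side (adjusted p = 2.86e-05 by edgeR) and −3.59 ± 0.49 on the ruptured side (adjusted p = 9.84e-08). These folds rest on few counts. The interaction was −0.93 ± 0.81 with an interval from −2.51 to 0.65 (adjusted p = 0.68 by edgeR), and the log2FC between the sides without hCG was 0.40 ± 0.33 (adjusted p = 0.51 by edgeR). Between the sides post-hCG, where the median library held 0.5 and 0 counts, no fold is given.

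Beyond these 10, 57 genes of arachidonic acid and eicosanoid metabolism were found in the tables. For hCG on the unruptured side 20 of the 57 passed the filter, and 7 were called higher, 4 lower and 9 neither (55.0% called beside 53.1% of all genes tested), with a median absolute log2FC of 0.65 beside 0.36 over all genes tested. For hCG on the ruptured side 18 passed, and 7 were called higher, 5 lower and 6 neither (66.7% beside 60.1%), with a median absolute log2FC of 0.85 beside 0.42. Between the sides 6 of 17 were higher and 1 lower on the putative ruptured side without hCG, and 4 of 17 were higher and 2 lower on the ruptured side post-hCG (41.2% beside 17.8%, and 35.3% beside 21.4%). In the interaction 2 of 21 were higher and 1 lower (14.3% beside 8.91%).

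Among the lipases that feed the pathway, *Daglb*, a diacylglycerol lipase, had group medians of 0.73 and 0.65 TPM without hCG and 2.71 and 2.75 TPM post-hCG on the unruptured and ruptured sides. It rose by a log2FC of 1.86 ± 0.15 and 2.21 ± 0.15 (adjusted p = 3.53e-12 and 3.06e-14 by edgeR). *Pla2g15*, a lysosomal phospholipase, rose by 0.93 ± 0.15 and 1.11 ± 0.17 (adjusted p = 3.84e-06 and 1.61e-06 by edgeR). *Pla2g16*, a phospholipase known from fat tissue, fell, with −0.93 ± 0.15 and −1.37 ± 0.21 (adjusted p = 6.49e-06 and 8.34e-07 by edgeR).

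*Mgll*, a lipase of monoacylglycerols, did not pass the filter and is named after its values were seen. Its level was 0.06 to 3.90 TPM (median 1.41) among putative unruptured libraries and 0 to 0.89 TPM (median 0) among putative ruptured libraries, where 8 of 14 held no count. Post-hCG its level was 0.49 to 5.01 TPM (median 1.48) among unruptured libraries and 0.50 to 7.16 TPM (median 3.59) among ruptured libraries. In the fit without the filter its log2FC for hCG was 0.98 ± 0.32 (unruptured side, adjusted p = 0.0176 by edgeR) and 3.96 ± 0.41 (ruptured side, adjusted p = 1.6e-10 by edgeR), the latter against 8 counts over the putative ruptured libraries. Post-hCG it was 1.08 ± 0.26 higher on the ruptured side (adjusted p = 0.00367 by edgeR). It was 1 of 8 pathway genes that passed the thresholds used for naming only in fits without the filter. The other 7 were *Alox5ap*, *Aloxe3*, *Pla2g5*, *Pla2g7*, *Ptgdr2*, *Ptgis* and *Tbxa2r*.

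Among the other terminal enzymes, *Fam213b*, which encodes a prostaglandin F synthase, went from medians of 4.68 and 4.39 TPM without hCG to 27.2 and 36.5 TPM post-hCG. The no hCG and post-hCG libraries of a side did not overlap, with no more than 6.05 and 8.02 TPM without hCG and at least 18.5 and 26.6 TPM post-hCG. Its log2FC was 2.60 ± 0.13 and 3.34 ± 0.19 (adjusted p = 4.47e-17 and 2.45e-16 by edgeR). *Gstm2*, a glutathione transferase of a family with close paralogs, among which reads could be split, went from medians of 708 and 516 TPM to 57.8 and 92.5 TPM, with a log2FC of −3.57 ± 0.37 and −2.82 ± 0.30 (adjusted p = 1.08e-09 and 1.24e-09 by edgeR). *Cbr3*, a carbonyl reductase, rose by 1.05 ± 0.19 on the unruptured side (adjusted p = 2.24e-05 by edgeR) and, without the filter, by 1.65 ± 0.26 on the ruptured side (adjusted p = 1.68e-06). *Akr1c18*, which reduces progesterone and can make prostaglandin F, was higher on the putative ruptured side by 1.40 ± 0.32 (adjusted p = 0.00195 by edgeR), with medians of 5.61 and 20.8 TPM. Its log2FC for hCG was 0.60 ± 0.32 and −0.20 ± 0.29 (adjusted p = 0.112 and 0.583 by edgeR).

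Among carriers, receptor partners and breakdown enzymes, *Slco3a1*, a transporter that can carry prostaglandins, was 2.99-fold higher on the putative ruptured side (log2FC 1.58 ± 0.21, adjusted p = 3.03e-06 by edgeR). Its medians were 1.64 and 6.07 TPM without hCG and 0.55 and 0.76 TPM post-hCG, and it fell by 1.73 ± 0.24 and 2.66 ± 0.21 on the log2 scale (adjusted p = 3.32e-07 and 9.98e-13 by edgeR). *Ptgr1*, which acts on prostaglandins after HPGD, had a log2FC for hCG of −0.88 ± 0.19 and −1.46 ± 0.20 (adjusted p = 0.000193 and 2.01e-07 by edgeR). *Ptgfrn*, a protein that binds PTGFR, rose by 0.70 ± 0.22 and 1.68 ± 0.24 (adjusted p = 0.00858 and 2.53e-07 by edgeR), and scaled by library totals alone the former was 0.48 with an adjusted p of 0.073.

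**Figure D5:**
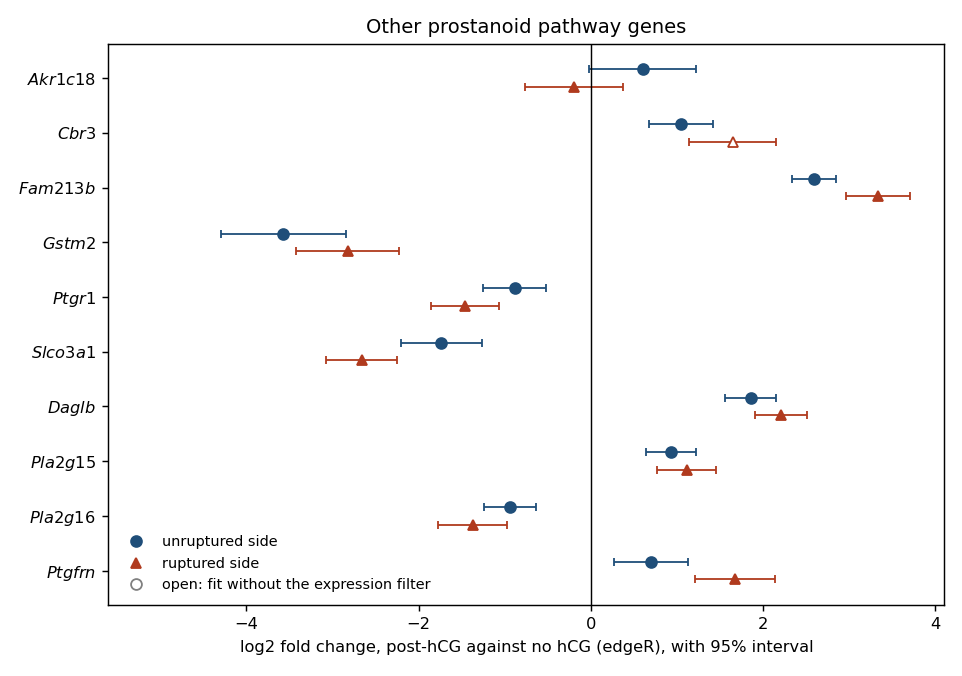
log2FC (horizontal axis), post-hCG against no hCG, of the 10 other pathway genes named from fits with the expression filter, on the unruptured and the ruptured side, with 95% intervals and an open symbol from the fit without the expression filter. *Fam213b* and *Daglb* lie to the right of 0 on both sides and *Gstm2* and *Slco3a1* to the left, while the intervals of *Akr1c18* include 0.

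By deviations from the group mean, the gene with the highest pooled r to *Ptgs2* was *Bhlhe40* (Pearson's r = 0.70, Spearman's rho = 0.68), a transcription factor, followed by *Tnfaip6* (r = 0.67), which links hyaluronan in the cumulus matrix, and *Slc7a8* (r = 0.67, rho = 0.72). The likeness is between deviations of log2(TPM + 1) from the group mean over the 54 libraries, among 9888 genes. The order differed between groups. In the putative unruptured, putative ruptured, unruptured and ruptured groups r was 0.71, 0.90, 0.48 and 0.25 for *Bhlhe40*, and 0.55, 0.77, 0.84 and 0.86 for *Slc7a8*. For *Ptgs1* the genes of highest pooled r were *Rhox8* (r = 0.65), *Scg2* (r = 0.63) and *Echdc2* (r = 0.58), with r from 0.12 to 0.85, 0.45 to 0.79 and −0.02 to 0.76 over the 4 groups. For *Ptges* they were *Vcpkmt* (r = 0.58), *Fam20c* (r = 0.55) and *Trp53inp2* (r = 0.55), with r from 0.09 to 0.76, 0.36 to 0.75 and −0.29 to 0.74. Libraries share depth and cell makeup, so these are descriptions with no test.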

How the data were processed

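The authors measured RNA of single follicle sides with Smart-Seq2 libraries, aligned the reads to GRCm38 with HISAT2 and deposited estimated counts and TPM values per gene. The counting program is not given in the sources used here, nor whether the deposited values precede the authors' batch correction with ComBat-seq. TPM as deposited by the authors is relative to transcript length and library total. Groups came from the labels. The members and lists were chosen with earlier results of these data known.

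Estimated counts, of which 72.2% of the non-zero values were whole, were rounded, and the tests were run with edgeR 4.0.16 (R 4.3.3, TMM scaling, filterByExpr, quasi-likelihood F-test, two-sided, Benjamini-Hochberg adjustment at 0.05). The filter kept genes with at least 15 counts in total and a CPM worth at least 10 counts in enough libraries. Enough was nearly as many libraries as the smallest group holds. Each pair of groups was fitted alone and the interaction on all 54 libraries. Folds are 2 to the power of the log2FC, and intervals are 95%. Alternatives were DESeq2 1.42.0, other scaling, filters and depth, limma 3.58.1 on log2(TPM + 1), 1 fit of all groups, a replicate block and leaving out each library. The fits were tested on simulated data. Total counts per library were 1497071 to 2834734. All 10 members were named, and of the pathway list those called with an absolute log2FC of at least 1 in a fit with the expression filter, and *Mgll* besides. The genes most like a member were ranked by Pearson's r, among genes whose mean reached 1 TPM. Positions are from the GENCODE annotation and promoters from RefSeq, both on GRCm38. All 10 members matched a promoter. The sample sheet was used only to check the labels.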

Additional observations from a re-analysis of the deposited data

Results flagged for a closer look

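In 5 genes the response to hCG was called different between the sides by the interaction test, among the 29 prostaglandin and pathway genes that passed its expression filter. Of all 10013 genes tested there, 8.91% were called. The interaction log2FC was −1.63 for *Ptges* and 1.18 for *Ptges2*, with the values by group given above. It was −0.69 ± 0.16 for *Zadh2* (adjusted p = 0.00266 by edgeR), a reductase of prostaglandin breakdown with medians of 10.8 and 12.4 TPM without hCG and 11.8 and 7.07 TPM post-hCG on the unruptured and ruptured sides. It was 0.75 ± 0.23 for *Ptgr2* (adjusted p = 0.0261 by edgeR), another such reductase, with medians of 5.83, 5.46, 5.64 and 5.56 TPM in the same order. Its group means of log2(TPM + 1) were 2.74, 2.52, 2.76 and 2.75. On that scale the sides differed less in their response than in the fit. In the fit without the filter the interaction was 2.99 ± 0.54 for *Mgll* (adjusted p = 0.000289 by edgeR), which had 8 counts in all in the putative ruptured group. For *Fam213b* it was 0.74 ± 0.24 (adjusted p = 0.0408 by edgeR). This last call was lost without any 1 of 14 libraries (log2FC 0.65 to 0.73, adjusted p 0.0503 to 0.0664), which were replicates 5 and 12 of the unruptured side, 2, 4, 5 and 8 of the ruptured side, 3, 10, 12 and 13 of the putative unruptured side and 3, 12, 13 and 14 of the putative ruptured side.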

How the results depend on the processing

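Of the log2FC values of members and pathway genes under the alternatives, 806 kept their direction and their side of the threshold, 28 lost a call, 18 gained one and 13 changed sign. The interaction of *Ptges*, a contrast chosen with its result known, was called in every alternative. The sign changes were in values close to 0 or resting on few counts, none of them called in the fit reported above, and their cause was not tested.

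Without 1 library *Ptger4* lay between −0.2301 and 0.0346 for the sides without hCG, between −0.0991 and 0.1369 for the sides post-hCG and between −0.0706 and 0.1437 for hCG on the unruptured side. In the same refits *Fam213b* lay between −0.1326 and 0.0569 for the sides without hCG, *Akr1c18* between −0.3063 and 0.0565 for hCG on the ruptured side, and *Ptgfr* between −0.2595 and 0.6523 in the interaction. Between the sides post-hCG *Ptger4* was −0.0009 with DESeq2, and *Daglb* was −0.0077 with library totals and −0.0921 with limma. The interaction with limma was 0.1946 for *Ptger3*, −0.0397 for *Ptgfr* and −0.1275 for *Pla2g15*, and that of *Ptgfr* was −0.4058 after thinning to 1497071 counts.

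Limma on log2(TPM + 1) called 1056 genes between the sides without hCG, against 1614. Of the members it called 2 there and 2 post-hCG, against 4 in each, and leaving out 1 library gave 2 to 5 post-hCG. A mean of at least 20 counts left 2 members called between the sides without hCG, 2 for hCG on the ruptured side and 1 in the interaction, since fewer were tested, against 4, 4 and 2. For hCG on the ruptured side DESeq2 and the fit without a filter each called 7, since more were tested. The mean log2 ratio of *Ptgs1* to *Ptgs2* without hCG, −1.45 and −2.46 on the putative unruptured and ruptured sides, was −3.15 and −5.00 with 0.1 TPM added and −3.33 and −4.82 as log2 CPM, since *Ptgs1* was near 0. With 0.1 TPM added, 19 of the group means of single members also moved by more than 1 SD.

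The call of *Ptgs2* between the sides post-hCG was lost with DESeq2 (0.83, adjusted p = 0.0578), library totals (0.66, 0.0917), limma (0.44, 0.251) and 1 fit of all groups (0.83, 0.148). That of *Ptges2* was lost with library totals (0.37, adjusted p = 0.148), no filter (0.53, 0.0563) and thinning (0.47, 0.0979). *Ptges* was called there with library totals (−0.42, adjusted p = 0.00577) and limma (−0.49, 0.0277). In that comparison the median log2FC of all genes was −0.14 with library totals and −0.21 with limma, against 0.01 in the fit reported above. The limma values of *Ptgs2*, *Ptges3* and *Ptgfr* between the sides post-hCG share that shift. The labels number replicates within groups, and same-numbered libraries did not deviate together on average (mean correlation −0.02 to 0.04, with at most 3 libraries most like their own number). Single pairs reached r = 0.35, between the sides without hCG. No known pair was at hand to show that this measure would detect one. Whether the same number marks 1 follicle or 1 mouse is therefore not known. With the number as a block 1406, 1733, 4378, 4934 and 714 genes and 3, 4, 6, 5 and 2 members were called in the 5 comparisons. Under that block *Ptgs2* was 1.22 between the sides without hCG (adjusted p = 0.156) and 1.23 for hCG on the ruptured side (0.0195). There *Ptges2* also lost its call between the sides post-hCG (0.52, 0.0639) and *Ptges* gained one (−0.29, 0.0385), so the 4 members called in that comparison were not the same 4, and in the interaction *Fam213b* lost its call (0.63, 0.137) and *Slco3a1* gained one (−0.97, 0.033).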
